A study of Mus musculus with 6 samples.

Results

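Sarcoplasmic reticulum calcium handling was described through 10 genes, which were taken by symbol from the 38918 genes of the expression table, and each symbol matched 1 row. They are the release channel gene Ryr2, the uptake pump gene Atp2a2, the pump inhibitor genes Pln and Sln, the luminal buffer and junction genes Casq2, Trdn, Jph2 and Asph, the exchanger gene Slc8a1 and the kinase gene Camk2d. RNA was sequenced from whole mouse hearts of embryonic day 11.5 on a C57/BL6 background. The conditional knockout embryos were Nfatc1Cre:Tie2 flox/flox, in which Nfatc1, active in the endocardial lining of the heart, drives the Cre recombinase that acts on both floxed alleles of Tie2, and the littermate controls were Tie2 flox/wild-type. Each genotype had 3 libraries and 18 hearts, whose RNA was pooled and then divided according to the submitters. No Cre is named in the control genotype, so whether the controls carried Cre is not known. If they did not, Cre itself, like the loss of Tie2, differs between the groups.

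In a heart muscle cell, calcium that enters through channels of the surface membrane opens ryanodine receptors of the sarcoplasmic reticulum, and the calcium released there starts contraction. The pump SERCA2 then returns calcium to the reticulum, held back by the small membrane proteins phospholamban and sarcolipin, while the sodium-calcium exchanger carries calcium out of the cell. Calsequestrin, triadin, junctin and junctophilin hold the store and the release channel at the junction with the surface membrane. In the embryonic heart the reticulum is still sparse, and calcium flux across the surface membrane contributes much of each beat.

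None of the 10 genes changed between genotypes in limma at an adjusted p under 0.05 over 12988 tested genes, where 0.177% of the genes were called, 0.123% as lower and 0.0539% as higher. Nor did any of the 10 pass an unadjusted p under 0.05, as 6.68% of the tested genes did. With the replicate number as a block, Casq2 and Trdn passed an unadjusted p under 0.05 in limma, as did 11.9% of the tested genes, and no member passed the adjusted p. All 10 lay above the minimum mean of 1 FPKM (sequenced fragments relative to transcript length and library size) that was set for testing. Their log2 fold changes, on the scale of log2(FPKM + 1) and as conditional knockout minus control, lay between -0.21 for Jph2 and 0.33 for Casq2. Of the 10, 8 lay above 0 and 2 below, with a median of 0.13, while 46.8% of all tested genes lay above 0, with a median of -0.01. These counts and medians moved with single libraries and with the scaling. Without control replicate 1, 6 of the 10 lay above 0 with a median of 0.04, and without conditional knockout replicate 3 it was 7 with a median of 0.06. In TPM, here FPKM rescaled to the same sum in every library, 5 of the 10 lay above 0 with a median of -0.001, where 22.7% of all tested genes lay above 0 with a median of -0.14. Scaled to cardiomyocyte markers, 10 of the 10 lay above 0 with a median of 0.35, as did 86% of all tested genes with a median of 0.18. RNA came from whole hearts, so fewer cells of a type and less RNA per cell cannot be told apart in any of these values.

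The libraries themselves differed in several respects, whose part in the values of the 10 genes was not tested. Tek, the gene of Tie2, stood at 3.38, 3.13 and 3.13 FPKM in conditional knockout hearts, against 22.4, 25.7 and 16.6 FPKM in control hearts. Deposited FPKM summed to between 531209 and 582261 in conditional knockout libraries and between 481334 and 534409 in control libraries, and the files give no read counts, so absolute depth is unknown. Low FPKM values were compared between libraries over 1582 genes that lay above 0 and under 0.3 FPKM in all of them. Between libraries numbered 2 or 3, whatever their genotype, 6.07% to 10.4% of the ratios fell at the commonest value, a window of 0.02 on the log2 scale. A pair with 1 replicate 1 library gave 1.07% to 1.33%, and the pair of both replicate 1 libraries gave 2.4%. The X-inactivation transcript Xist stood at 32.9, 0.0295 and 0.0324 FPKM in conditional knockout libraries and at 8.997, 40.7 and 0.0171 FPKM in control libraries, which equal portions of 1 pool would not give. The number of hearts in a library is not known for this reason, and the spread that p-values measure is that between libraries, which may be partly technical. The Y-linked genes Ddx3y, Kdm5d, Uty and Eif2s3y summed to 54.9, 79.0 and 82.1 FPKM in conditional knockout libraries and 29.6, 31.2 and 65.0 FPKM in control libraries. Sex was thus not balanced between the groups, nor between the libraries of replicate number 2. Both libraries of number 1 held Xist and Y-linked transcripts, at different levels. Under number 3 both libraries had little Xist, at 0.0324 FPKM in conditional knockout and 0.0171 FPKM in control. Its part in the differences between genotypes was not tested.

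The labelled tissue was checked against defining markers. All 13 cardiomyocyte markers were present, with a summed level of 11769 to 17689 FPKM in conditional knockout hearts and 17105 to 18265 FPKM in control hearts. All 13 had a log2 fold change below 0 (median -0.21) and none passed the test, while 46.8% of all tested genes lay above 0. The lowest sum was that of conditional knockout replicate 1. Without that library 8 of the 13 lay below 0 in log2 FPKM, and their mean differed by -0.04 rather than -0.22. Within replicates 2 and 3 alone, 11 of the 13 lay below 0 and their mean differed by -0.09. The 8 endothelial markers summed to 243 to 278 FPKM in conditional knockout hearts and 353 to 403 FPKM in control hearts, and none of the markers of either list was at 0 in all libraries. Of the 8 endothelial markers only Npr3 passed the test (limma adjusted p = 0.00421), and 7 lay below 0, with Emcn above it. For those 7 every conditional knockout library lay below every control, as for 8.17% of all tested genes. Skeletal muscle markers, which could bring in RNA for the same calcium proteins, summed to 156 to 214 FPKM in conditional knockout hearts and 211 to 292 FPKM in control hearts, largely through Acta1, which embryonic heart muscle also expresses. The skeletal regulators Myog and Myod1 stood at 2.71 and 1.28 FPKM in conditional knockout replicate 1 and at most at 0.571 and 0.33 FPKM in every other library. The part of these cell types in the calcium handling values was not tested.

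The levels of the 10 genes spanned a 49.6-fold range of mean FPKM, a scale that allows for transcript length. Atp2a2 and Pln led at means of 375 and 322 FPKM over the 6 libraries, and their ranges of 354 to 405 and 275 to 360 FPKM overlapped. Slc8a1 followed at 130 FPKM, below every Pln library and above every Camk2d library. Camk2d, Asph and Jph2, at 55.1, 47.4 and 41.8 FPKM, formed a group in which each overlapped the next. Casq2, Ryr2 and Trdn, at 21.8, 20.2 and 14.5 FPKM, overlapped likewise, although Ryr2 lay above Trdn in each of the 6 libraries. Sln was lowest at 7.56 FPKM, and its highest library, at 9.47 FPKM, lay just under the lowest Trdn library, at 9.50 FPKM.

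**Figure D1:**
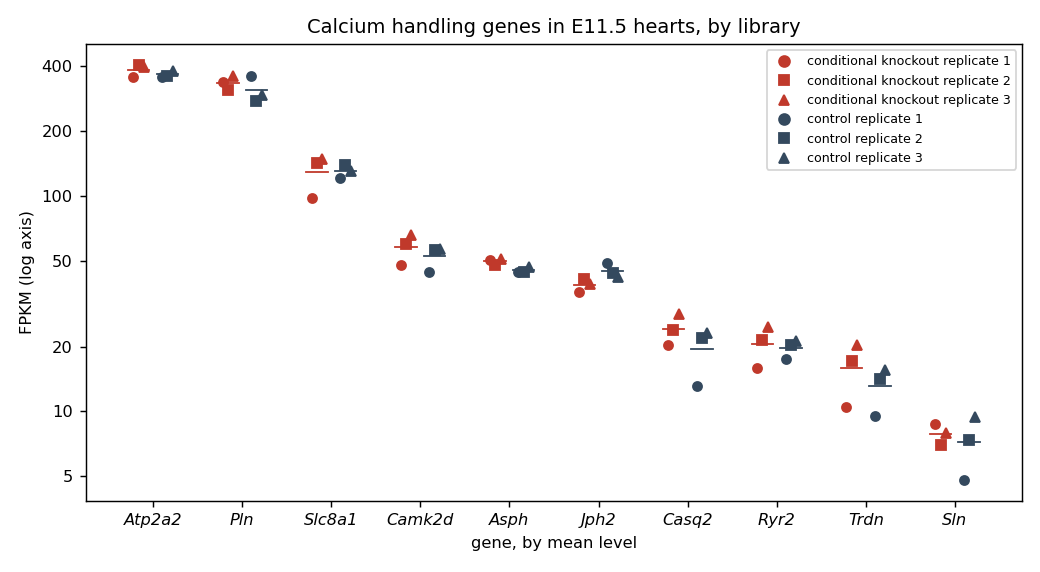
FPKM of each of the 10 calcium handling genes (log axis) in 3 conditional knockout and 3 control libraries, with genes ordered by mean level. Points are libraries, with a symbol for each replicate number, and short lines are group means: the groups overlap for every gene except Jph2, lower in conditional knockout hearts, and Asph, higher in them.

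The release channel gene Ryr2 (chromosome 13, 11553102 to 12106945, minus strand, GRCm38) encodes the ryanodine receptor through which the reticulum gives up its calcium. Its level was 15.97, 21.4 and 24.5 FPKM in conditional knockout libraries, against 17.5, 20.4 and 21.2 FPKM in control libraries. The control libraries lay inside the range of the conditional knockout libraries, which held both the lowest and the highest value. Group means were 20.6 ± 4.33 FPKM in conditional knockout hearts and 19.7 ± 1.94 FPKM in control hearts (SD, n = 3 each). On the log2 scale the difference was 0.05 ± 0.16 (SE, limma adjusted p = 0.972), a ratio of 1.03 with a 95% interval of 0.794 to 1.35.

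The uptake pump gene Atp2a2 (chromosome 5, 122453513 to 122502225, minus strand) encodes SERCA2, the calcium pump of the cardiac reticulum. It stood at 354, 405 and 395 FPKM in conditional knockout libraries, against 355, 361 and 380 FPKM in control libraries. Replicates 2 and 3 of the conditional knockout lay above all controls, and replicate 1 lay just under the lowest of them. Its log2 fold change of 0.07 ± 0.11 (SE, limma adjusted p = 0.908) corresponds to a ratio of 1.05 with a 95% interval of 0.883 to 1.25. Pump genes of other muscles and tissues were at a small part of this level: the Atp2a2 level was 51.2 to 95.1 times that of Atp2a1, the pump gene of fast skeletal muscle, across the 6 libraries.

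Pln (chromosome 10, 53337667 to 53345987, plus strand) encodes phospholamban, which slows the pump until it is phosphorylated. It had 336, 309 and 359 FPKM in conditional knockout libraries, against 359.6, 275 and 292 FPKM in control libraries. The highest of the 6 values was that of control replicate 1 and the lowest that of control replicate 2, so that the conditional knockout libraries lay within the controls. Limma put the log2 fold change at 0.12 ± 0.14 (SE, adjusted p = 0.872), a ratio of 1.09 with a 95% interval of 0.872 to 1.36. Exons of Pln overlap those of Cep85l on the other strand, and since no source used here gives the strand setting, reads of the overlap cannot be assigned. Cep85l stood at only 1.58 to 2.07 FPKM in conditional knockout libraries and 1.12 to 1.67 FPKM in control libraries.

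Sln (chromosome 9, 53850164 to 53854560, plus strand) encodes sarcolipin, the pump inhibitor of atrial muscle in the mouse heart. Its level was 8.73, 6.998 and 7.94 FPKM in conditional knockout libraries, against 4.81, 7.40 and 9.47 FPKM in control libraries. Both the lowest and the highest value were those of controls. Its fitted difference of 0.15 ± 0.21 on the log2 scale (SE, limma adjusted p = 0.8998) took its sign from 1 library, since without control replicate 1 it was -0.08. Among 7 genes listed as atrial markers, which include Myl7, Myl4 and Nppa, none passed the test at the adjusted p. How far these genes tell atria from ventricles at embryonic day 11.5 was not tested. Of the 7, 4 lay above 0 and 3 below, from 0.20 for Nr2f1 to -0.36 for Nppa. For Myl4 and Nppa every conditional knockout library lay below every control, as for 8.17% of all tested genes. The 7 markers, of which Myl7 was the most abundant, summed to 4984 to 7288 FPKM in conditional knockout hearts and 6712 to 6921 FPKM in control hearts.

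The amount of inhibitor message per pump message did not differ beyond the spread between libraries. Pln stood at 0.949, 0.763 and 0.909 of the Atp2a2 level in conditional knockout libraries, against 1.01, 0.761 and 0.769 in control libraries (exact permutation test of the mean log2 ratio, two-sided p = 0.9, adjusted p = 1 over 5 ratios). Such ratios do not depend on how a library was scaled, and 3 against 3 libraries cannot give a p under 0.1. Sln stood at 0.0247, 0.0173 and 0.0201 of the Atp2a2 level in conditional knockout libraries, against 0.0135, 0.0205 and 0.0249 in control libraries (exact two-sided p = 0.9). The mean log2 difference of the Pln ratio changed sign without conditional knockout replicate 1, control replicate 2 or control replicate 3, and that of the Sln ratio without either replicate 1 library.

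Casq2 (chromosome 3, 102086415 to 102146514, plus strand) encodes cardiac calsequestrin, the calcium-binding protein inside the reticulum. It had the highest log2 fold change of the 10 genes and stood at 20.4, 23.7 and 28.3 FPKM in conditional knockout libraries, against 13.1, 21.9 and 23.2 FPKM in control libraries. Control replicate 1 was far below the other 5 libraries, and conditional knockout replicate 3 above them. Limma estimated the difference at 0.33 ± 0.22 on the log2 scale (SE, adjusted p = 0.811), a ratio of 1.26 with a 95% interval of 0.875 to 1.80. Without control replicate 1 it was 0.08.

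Set against Ryr2 in the same library, Casq2 was at 1.28, 1.11 and 1.15 in conditional knockout libraries and at 0.749, 1.08 and 1.09 in control libraries. Every conditional knockout library lay above every control, with a mean log2 difference of 0.30. This is the smallest p that 3 against 3 libraries allow (exact permutation test, two-sided p = 0.1), and the adjusted p over the 5 ratios was 0.5. The distance between replicates 2 of both groups was small, and control replicate 1 made up most of the mean difference. Without that library the mean log2 difference was 0.12.

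Trdn (chromosome 10, 33080554 to 33476709, plus strand) encodes triadin, which ties calsequestrin to the release channel. Its values were 10.5, 17.1 and 20.3 FPKM in conditional knockout libraries, against 9.50, 14.2 and 15.5 FPKM in control libraries. Both replicate 1 libraries were low, and within each replicate number the conditional knockout library was the higher. This gave a log2 fold change of 0.25 ± 0.26 (SE, limma adjusted p = 0.863), a ratio of 1.19 with a 95% interval of 0.778 to 1.81. With the replicate number as a block the adjusted p was 0.383 and the unadjusted p 0.0289. Casq2 had an adjusted p of 0.387 and an unadjusted p of 0.0314 in the same limma fit.

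Jph2 (chromosome 2, 163336242 to 163397993, minus strand) encodes junctophilin 2, which spans the gap between the reticulum and the surface membrane. It stood at 35.6, 41.3 and 38.98 FPKM in conditional knockout libraries, against 48.8, 43.7 and 42.2 FPKM in control libraries. Every conditional knockout library lay below every control, which held for 8.17% of all tested genes. The group means were 38.6 ± 2.87 FPKM in conditional knockout hearts and 44.9 ± 3.46 FPKM in control hearts (SD, n = 3 each). Its log2 fold change of -0.21 ± 0.11 (SE, limma adjusted p = 0.773, unadjusted p = 0.0829) corresponds to a ratio of 0.863 with a 95% interval of 0.727 to 1.03.

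Promoter sequences are shown for the genes at both ends of the range, Casq2 with the highest fold change and Jph2 with the lowest. RefSeq entries on GRCm38.p6 were found for 6 of the 10 genes, Ryr2, Pln, Casq2, Jph2, Slc8a1 and Camk2d. The sequences run 5′ to 3′ over the 250 bases before the annotated start, at chr3:102086165-102086414 on the plus strand for Casq2 and at chr2:163397994-163398243 on the minus strand for Jph2. Jph2 had a further entry with another start, at chr2:163397974-163398223, whose window also held 1 E-box and is not shown. Capitals mark matches, on either strand and with no overlaps between motifs, to the E-box CANNTG, the GATA motif AGATAA, the M-CAT motif CATTCC, the TATA motif TATAAA, the CArG box and the MEF2 motif.
Casq2: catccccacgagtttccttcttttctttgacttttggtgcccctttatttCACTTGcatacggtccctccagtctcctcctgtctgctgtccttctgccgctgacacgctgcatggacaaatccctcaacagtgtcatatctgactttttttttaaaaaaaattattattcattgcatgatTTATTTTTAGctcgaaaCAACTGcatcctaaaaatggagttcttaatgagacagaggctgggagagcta
Jph2: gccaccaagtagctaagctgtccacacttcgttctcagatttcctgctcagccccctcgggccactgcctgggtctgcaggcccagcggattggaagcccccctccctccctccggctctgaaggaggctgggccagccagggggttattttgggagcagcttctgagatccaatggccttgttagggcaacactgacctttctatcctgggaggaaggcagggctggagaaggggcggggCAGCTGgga

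The Casq2 window held 2 E-boxes and 1 match to the MEF2 motif, whose first base lies 69 bases before the start. The Jph2 window held 1 E-box. Of 32851 promoter windows of the same length, 66.2% held an E-box and 2.92% a MEF2 match. Casq2 was the 1 gene with a MEF2 match among the 6. Their windows also differed in base composition, with a GC content of 41.6% for Casq2 and 62% for Jph2, and of 32.8% for Pln and 68.4% for Camk2d at the extremes. A match is a description of these letters and not evidence of a bound site.

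Asph (chromosome 4, 9448069 to 9669344, minus strand) encodes junctin and junctate of the reticulum and, from other transcripts, a hydroxylase of aspartate residues that many tissues make. Its level was 50.4, 47.9 and 50.7 FPKM in conditional knockout libraries, against 44.3, 44.1 and 46.9 FPKM in control libraries. The conditional knockout libraries all lay above the controls, as was the case for 5.23% of all tested genes. Limma estimated a difference of 0.14 ± 0.09 on the log2 scale (SE, adjusted p = 0.808), a ratio of 1.10 with a 95% interval of 0.951 to 1.27. GENCODE release M21 lists 20 transcripts for the gene, 15 of them protein coding, and the FPKM covers them all, so the junctin part of the level is not known. Exons of Asph overlap those of Clvs1 on the other strand, which stood at 4.202 to 4.53 FPKM in conditional knockout libraries and 2.16 to 5.23 FPKM in control libraries.

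Slc8a1 (chromosome 17, 81373105 to 81738377, minus strand) encodes the sodium-calcium exchanger of the surface membrane. It stood at 97.96, 141 and 148 FPKM in conditional knockout libraries, against 121, 139 and 131 FPKM in control libraries. Replicate 1 was the lowest library in each group, and replicates 2 and 3 of the conditional knockout lay above all controls. The fitted difference was -0.03 ± 0.17 on the log2 scale (SE, limma adjusted p = 0.983), a ratio of 0.977 with a 95% interval of 0.742 to 1.29. Its sign changed without conditional knockout replicate 1, where the value was 0.15, and without control replicate 2, where it was 0.01.

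Further ratios within a library set the exchanger and the release channel against the pump. Slc8a1 stood at 0.277, 0.349 and 0.374 of the Atp2a2 level in conditional knockout libraries, against 0.341, 0.384 and 0.345 in control libraries (exact permutation test, two-sided p = 0.6). Ryr2 stood at 0.0451, 0.0529 and 0.0621 of the Atp2a2 level in conditional knockout libraries, against 0.0493, 0.0566 and 0.0556 in control libraries (exact two-sided p = 1). The groups overlapped in both, with an adjusted p of 1 for each over the 5 ratios.

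Camk2d (chromosome 3, 126596302 to 126846326, plus strand) encodes the delta form of calcium/calmodulin-dependent kinase II, which phosphorylates the release channel and phospholamban. Its level was 48.0, 59.7 and 65.9 FPKM in conditional knockout libraries, against 44.1, 56.3 and 56.7 FPKM in control libraries. Replicate 1 was again the lowest in both groups, and the groups overlapped. Camk2d had a log2 fold change of 0.14 ± 0.16 (SE, limma adjusted p = 0.872), a ratio of 1.10 with a 95% interval of 0.855 to 1.42.

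**Figure D2:**
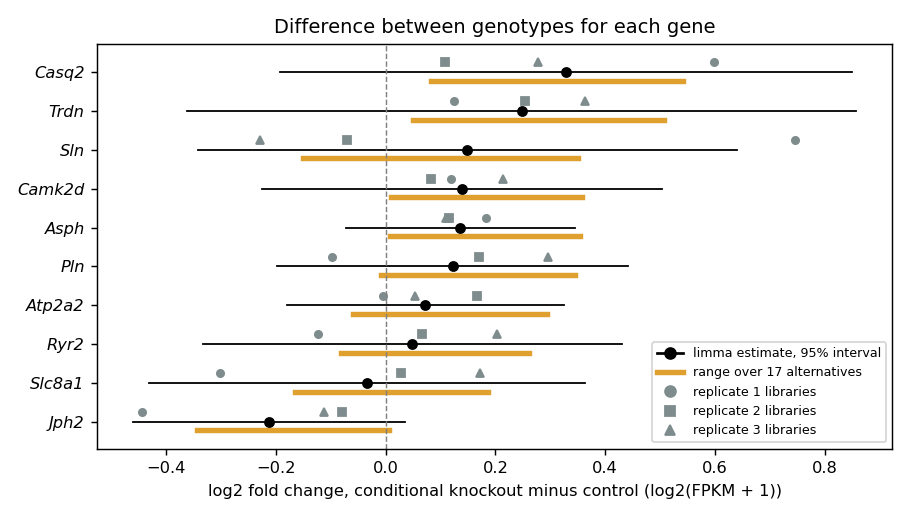
Log2 fold change of each gene, conditional knockout minus control on the log2(FPKM + 1) scale. Black points and lines are limma estimates with 95% intervals, and orange bars the range over 17 alternative settings. Grey symbols are the difference between the libraries that share a replicate number. Every interval spans 0, and the estimates run from -0.21 for Jph2 to 0.33 for Casq2.

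Conditional knockout replicate 3 was the highest of the 6 libraries for 6 of the 10 genes, namely Ryr2, Casq2, Trdn, Asph, Slc8a1 and Camk2d, and for 15.7% of all tested genes. The highest library was conditional knockout replicate 2 for Atp2a2, control replicate 1 for Pln and Jph2 and control replicate 3 for Sln. The lowest library was a replicate 1 library for 8 genes: that of the conditional knockout for Ryr2, Atp2a2, Jph2 and Slc8a1, and that of the control for Sln, Casq2, Trdn and Camk2d. Over all tested genes the lowest library was conditional knockout replicate 1 for 22.5% and control replicate 1 for 25.7%. For Pln and Asph it was control replicate 2. Within replicate number 1, 5 of the 10 genes were higher in the conditional knockout library, and within numbers 2 and 3 it was 8 of 10 each. Casq2, Trdn, Asph and Camk2d were higher and Jph2 was lower in the conditional knockout library under all 3 numbers. The same counts by replicate number were not made over all tested genes, so they only describe the 10 genes.

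Both replicate 1 libraries also deviated by transcript length. In conditional knockout replicate 1 the median of log2(FPKM + 1) minus the mean of replicates 2 and 3 was 0.01 for tested genes with a longest annotated transcript under 2000 nucleotides and -0.09 for those of at least 10000 nucleotides. In control replicate 1 the same medians were 0.13 and -0.27. The 2 longest members, Slc8a1 and Ryr2 with transcripts of 18464 and 16814 nucleotides, deviated by -0.56 and -0.50 in conditional knockout replicate 1 and by -0.16 and -0.24 in control replicate 1. Trdn, of 4514 nucleotides, deviated by -0.78 in conditional knockout replicate 1 and by -0.59 in control replicate 1, while the medians of its length class were -0.01 in conditional knockout replicate 1 and -0.08 in control replicate 1. Casq2, of 2556 nucleotides, deviated by -0.33 in conditional knockout replicate 1 and by -0.74 in control replicate 1, where the class medians were 0.0048 and 0.03. The part of transcript length in the differences between genotypes was not tested.

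**Figure D3:**
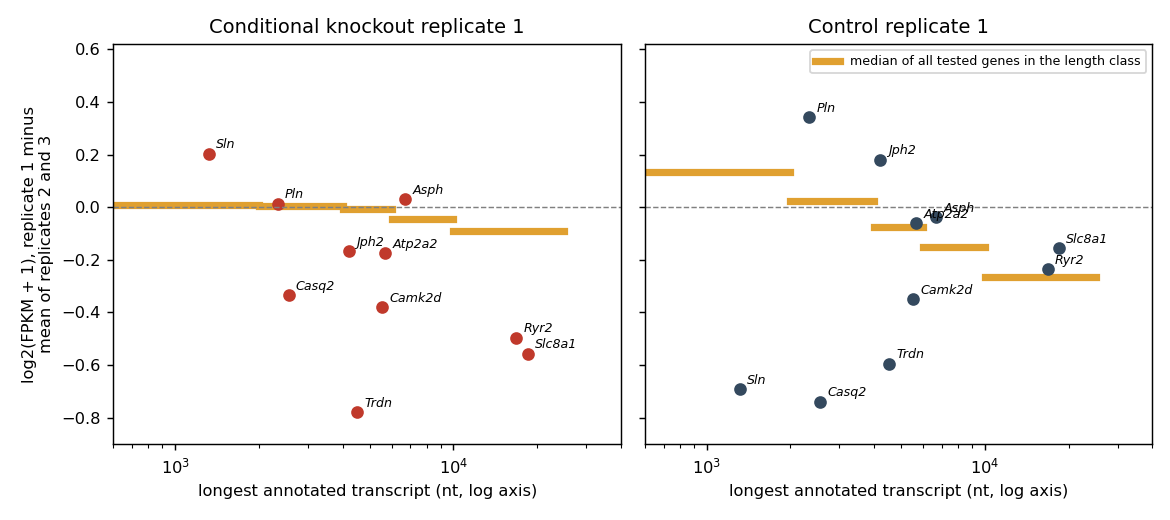
Deviation of the replicate 1 library from replicates 2 and 3 of its group, on the log2(FPKM + 1) scale, against the longest annotated transcript in nucleotides (log axis), for conditional knockout (left) and control (right). Points are the 10 genes and orange bars the medians of all tested genes in 5 length classes: Trdn lies at -0.78 in conditional knockout and at -0.59 in control replicate 1, below its class in both.

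Over all 6 libraries, 13 of 13 cardiomyocyte markers lay below 0 and 8 of 10 calcium handling genes above it. Each gene was therefore also set against the markers of the same library. The measure was log2 FPKM minus the mean log2 FPKM of the 13 markers, and its difference between groups is given as a description with no test. On this scale all 10 genes lay higher in conditional knockout hearts, by 0.01 for Jph2 to 0.57 for Casq2, with a median of 0.35. Over 12805 tested genes above 0 in every library, 86% lay higher on the same scale, with a median of 0.21. The conditional knockout libraries lay above all controls for 7 of the 10 genes, Ryr2, Atp2a2, Casq2, Trdn, Asph, Slc8a1 and Camk2d, and for 15.4% of all genes.

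Slc8a1 showed the smallest spread on this scale. It stood at -2.12, -2.14 and -2.05 in conditional knockout libraries, against -2.30, -2.29 and -2.28 in control libraries, and the groups did not overlap. Casq2 stood at -4.38, -4.72 and -4.43 in conditional knockout libraries, against -5.51, -4.95 and -4.78 in control libraries. The marker mean of conditional knockout replicate 1, at 8.73, lay below the other 5 libraries, at 9.22 to 9.41. Without that library 9 of 10 genes lay higher, with a median of 0.18, as did 56.5% of all genes, with a median of 0.03. Libraries were then separated upward for 7 of the 10 genes and for 16.2% of all genes. Within replicates 2 and 3 alone, 8 of 10 genes lay higher, with a median of 0.22, as did 65.7% of all genes, with a median of 0.08. With only 2 libraries a group, these were separated upward for 8 of the 10 genes and for 34.9% of all genes.

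**Figure D4:**
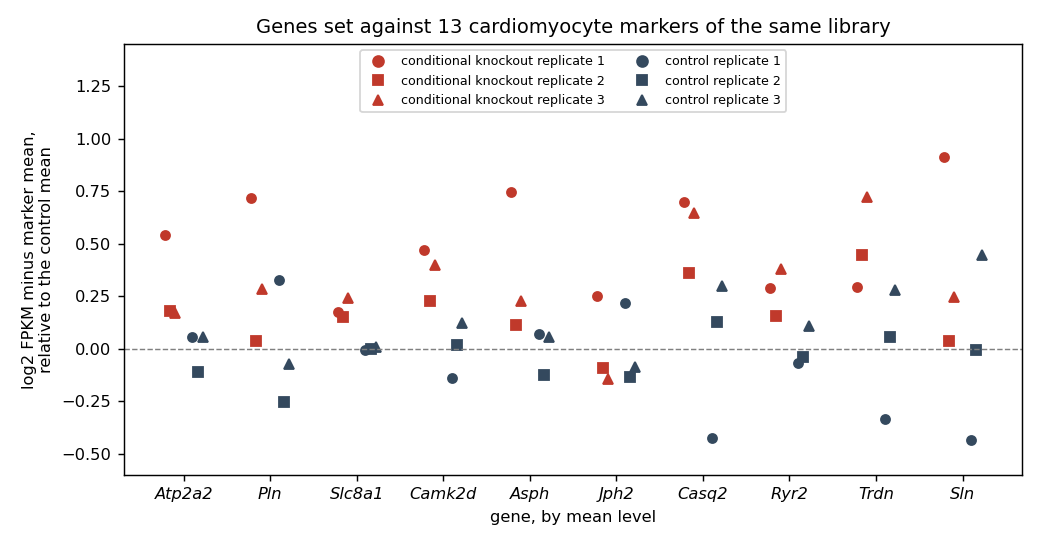
Log2 FPKM of each gene minus the mean of 13 cardiomyocyte markers of the same library, shown relative to the control mean of that gene, in conditional knockout and control libraries. Points are libraries and the dashed line is the control mean: for 7 of the 10 genes all conditional knockout libraries lie above all controls, with differences of 0.01 for Jph2 to 0.57 for Casq2.

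Other genes of calcium handling were read from a list of 57, of which 53 were in the table and 48 reached a mean of 1 FPKM. None passed limma's adjusted p in either direction, against 0.177% of all tested genes. At an unadjusted p under 0.05 there was 1 of the 48, S100a1, where 6.68% of all tested genes passed. It was singled out after its values were seen. This gene encodes a calcium sensor that binds the pump and the release channel, and it stood at 65.6, 69.7 and 62.1 FPKM in conditional knockout libraries, against 81.2, 75.4 and 75.6 FPKM in control libraries. The groups did not overlap, as was the case in this direction for 8.17% of all tested genes. Limma put the difference at -0.23 ± 0.10 on the log2 scale (SE, adjusted p = 0.742). Of the 48 genes 14 lay above 0 and 34 below, with a median of -0.08, while 46.8% of all tested genes lay above 0.

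Among other release channels, Itpr1, an inositol trisphosphate receptor gene, was the most abundant, at 7.72 ± 0.891 FPKM in conditional knockout hearts and 7.82 ± 1.36 FPKM in control hearts (SD, n = 3 each). Ryr2 stood at 2.38 to 3.03 times the Itpr1 level across the 6 libraries and at 5.36 to 12.1 times that of Ryr3. Of 8 ryanodine receptor partners 7 lay below 0, and Fkbp1a, which encodes a small binding protein of the channel, led at 399.8 ± 36.5 FPKM in conditional knockout hearts and 434 ± 124 FPKM in control hearts. Both counter-ion channel genes lay below 0, with Tmem38a at 22.1 ± 2.64 FPKM in conditional knockout hearts and 25.6 ± 4.82 FPKM in control hearts. Ppp1r1a, which encodes an inhibitor of the phosphatase that acts on phospholamban, stood at 32.0 ± 7.03 FPKM in conditional knockout hearts and 37.7 ± 3.53 FPKM in control hearts.

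Among luminal buffers, both calreticulin and a calsequestrin paralog were abundant. Calr, the gene of calreticulin, which buffers calcium in the embryonic endoplasmic reticulum, stood at 613 ± 164 FPKM in conditional knockout hearts and 690 ± 136 FPKM in control hearts. Casq1, known as the calsequestrin gene of skeletal muscle, was at 159 ± 22.3 FPKM in conditional knockout hearts and 167 ± 9.18 FPKM in control hearts. It lay above Casq2 in all 6 libraries, at 5.26 to 13.3 times its level. This order of the paralogs differed from that of the junctophilins, where Jph2 was at 15.0 to 23.0 times the level of Jph1, and from that of the pumps.

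At the surface membrane 7 of 9 calcium channel genes lay above 0, and the most abundant was Cacna2d2, a channel subunit gene, at 41.0 ± 6.21 FPKM in conditional knockout hearts and 39.8 ± 2.92 FPKM in control hearts. Cacna1g, which encodes a T-type channel of the embryonic heart, had the largest log2 fold change of the 48 genes in size, 0.80 ± 0.37 (SE, limma adjusted p = 0.772). It stood at 7.62, 3.72 and 4.48 FPKM in conditional knockout libraries, against 1.003, 4.22 and 3.01 FPKM in control libraries, so that the highest and the lowest value were those of the replicate 1 libraries and the groups overlapped. Cacna1c, the main L-type channel gene of the heart, was at 9.87 ± 1.44 FPKM in conditional knockout hearts and 9.54 ± 2.67 FPKM in control hearts. Of 6 surface pump and exchanger genes 5 lay below 0.

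Of 7 kinase and phosphatase genes 6 lay below 0, and the most abundant was the phosphatase gene Ppp1ca, at 219 ± 18.8 FPKM in conditional knockout hearts and 249 ± 47.9 FPKM in control hearts. Camk2d was the most abundant kinase II gene in all 6 libraries, at 1.04 to 1.35 times the Camk2a level, 2.51 to 3.86 times that of Camk2g and 33.0 to 59.8 times that of Camk2b.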

How the data were processed

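Whole-heart RNA-seq of 3 conditional knockout and 3 control libraries was used. The authors deposited FPKM per gene for 38918 genes. Per the submitters' processing notes, the tools included TopHat2 (2.0.9), Cufflinks (2.2.1), Cuffdiff and HTSeq and the build was mm10. What each tool did, the annotation release and the strand setting are not given in any source used. FPKM depends on the library total, so very abundant transcripts move all other values.

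Values were analysed as log2(FPKM + 1) with limma (3.58.1, R 4.3.3), an intensity trend and Benjamini-Hochberg adjustment over the 12988 genes whose mean reached 1 FPKM, at a threshold of 0.05. The residual degrees of freedom were 4. The procedure was tested on simulated data. Positions and transcript lengths come from GENCODE M21 on GRCm38, which held 37607 of the identifiers. The members and lists were chosen with earlier results of these data known. Named genes were all members, the most abundant gene of each role group, genes past the threshold, and otherwise the largest change in size. The named gene of some role groups is not reported here. Others were chosen after their values were seen. Of the list of 57, 4 symbols (Strit1, Mrln, Erln and Arln) had no match and were not analysed here.

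Deviations from the group means correlated between libraries of the same replicate number at 0.267, 0.109 and 0.439 for numbers 1, 2 and 3 (12805 genes above 0 in every library), and between -0.391 and 0.0953 for different numbers. The numbers were therefore treated as a possible pairing and used as a block in an alternative. Marker comparisons over subsets of libraries were added after seeing the data.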

Additional observations from a re-analysis of the deposited data

How the results depend on the processing

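In none of 17 alternative settings did a member or another calcium gene pass the threshold. The lowest adjusted p of a member was 0.180, for Jph2 in TPM made from the FPKM. Of 170 member values, 157 kept their sign and 13 did not. In TPM the median log2 fold change of all genes was -0.14, and Ryr2 (-0.0791), Atp2a2 (-0.0595) and Pln (-0.0091) lay below 0. TPM divides by a library sum that holds the globin genes Hbb-y and Hba-x, at 17557 to 23965 and 11129 to 18709 FPKM in conditional knockout libraries and listed at 0 in all control libraries. Scaling to the cardiomyocyte markers gave a median of 0.18 over all genes and put Jph2 at 0.0059 and Slc8a1 at 0.1872. Slc8a1 was also above 0 with quantile normalization (0.0064) and within replicates 2 and 3 (0.0998), where Sln was at -0.1496. Without any 1 library, Ryr2 lay between -0.0804 and 0.2138, Sln between -0.0819 and 0.3434 and Slc8a1 between -0.1419 and 0.1515. The log2 ratio differences then lay between -0.0206 and 0.1858 for Pln to Atp2a2, -0.1430 and 0.2966 for Sln to Atp2a2, -0.1956 and 0.0218 for Slc8a1 to Atp2a2, and -0.1375 and 0.0932 for Ryr2 to Atp2a2. Of all tested genes, 16 were lower and 7 higher. The lower count was 7 with no filter, 2 when scaled to the markers, 29 in TPM, 8 within replicates 2 and 3 and 4 to 9 without any 1 library, and the higher count was 6 to 11 without any 1 library, with 11 without conditional knockout replicate 2. With the replicate number as a block, 11 genes were lower and 6 higher, and no call at the adjusted p changed among the calcium genes. With that block, an unadjusted p under 0.05 in limma was reached by Casq2 and Trdn, and by 11.9% of all tested genes. Casq2 reached it when scaled to the markers, as did 5.07% of all tested genes. Jph2 reached it in TPM, as did 16.2% of all tested genes. Trdn reached it within replicates 2 and 3, as did 11% of all tested genes. The cause of these shifts was not tested. With 3 libraries a group and no read counts, a ratio of up to 1.80 for Casq2 and 1.81 for Trdn lies inside the 95% intervals.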
